A study of Mus musculus with 2 samples.

Results

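The genes described here are 10 mouse regulators of the passage from G1 into S phase: the D-type cyclin genes Ccnd1, Ccnd2 and Ccnd3, their kinase Cdk6, Ccne1, Cdc25a, the inhibitors Cdkn1a and Cdkn1b, Rb1 and Trp53. They were taken by name from a fixed list, chosen with earlier results of these data known. All 10 were found among 21489 protein-coding genes of known strand. For each gene, the summits of NANOG ChIP-seq peaks were collected that lay in the gene body or within 50 kb of its transcription start site (TSS), taken as the 5' end of the gene on build mm10. Of 15891 peaks in the authors' optimal set, 22 had their summit in these windows. The series holds chromatin immunoprecipitates made with an antibody against NANOG, a homeodomain factor of pluripotent cells, from E14TG2a.4, a male embryonic stem cell line of mouse strain 129/Ola. The only group has 2 biological replicates, each with 1 technical replicate, both with an age label of 3.5 days. No agent, allele or time point separates the samples, so conditions could not be compared. The sequencing depth behind the lists is unknown, and peak lists hold no expression values against which the cell type could be checked.

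D-type cyclins activate CDK4 and CDK6, which phosphorylate the retinoblastoma protein RB1 and so release E2F transcription factors that switch on S-phase genes. Cyclin E with CDK2 completes this step, CDC25A removes the phosphates that hold CDK2 inactive, and the inhibitors p21 (Cdkn1a) and p27 (Cdkn1b) restrain the kinases, with p53 (Trp53) as the activator of Cdkn1a after DNA damage. Mouse embryonic stem cells are known for a short G1 phase with high CDK2 activity, and CDK6 and CDC25A have been described as NANOG-bound genes in human embryonic stem cells.

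The sequences below come from the mm9 genome, the build for which sequence was at hand, and are the 201 bp around the midpoint of 7 peaks of the authors' series-level mm9 list. They were chosen because 6 of them are the member peaks with the highest mm9 enrichment, and the Cdkn1a site stands for the member without an optimal summit. All are given on the plus strand, 5' to 3', and none touches an annotated exon. Capitals mark matches on either strand to one of 9 short motifs, which are spelled out with their frequencies after the results by gene. A midpoint of a broad mm9 region is not a summit.
Rb1 intronic site, chr14:73723874-73724074: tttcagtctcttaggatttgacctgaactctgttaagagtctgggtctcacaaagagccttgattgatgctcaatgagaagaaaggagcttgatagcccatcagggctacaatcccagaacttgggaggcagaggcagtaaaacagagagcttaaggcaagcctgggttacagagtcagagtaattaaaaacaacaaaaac
Trp53 intronic site, chr11:69395311-69395511: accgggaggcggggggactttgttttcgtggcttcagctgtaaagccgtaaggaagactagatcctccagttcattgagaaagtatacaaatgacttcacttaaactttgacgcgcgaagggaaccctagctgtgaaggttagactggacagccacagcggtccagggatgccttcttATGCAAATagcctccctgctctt
Trp53 upstream site, chr11:69377938-69378138: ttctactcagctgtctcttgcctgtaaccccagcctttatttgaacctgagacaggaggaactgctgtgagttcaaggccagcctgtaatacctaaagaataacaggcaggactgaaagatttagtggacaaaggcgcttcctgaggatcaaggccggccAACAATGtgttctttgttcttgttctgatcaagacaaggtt
Cdc25a downstream site, chr9:109812236-109812436: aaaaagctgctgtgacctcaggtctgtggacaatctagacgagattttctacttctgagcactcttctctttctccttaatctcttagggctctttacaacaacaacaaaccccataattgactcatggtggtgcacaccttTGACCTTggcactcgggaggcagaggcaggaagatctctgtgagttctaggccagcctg
Ccnd3 intronic site, chr17:47708658-47708858: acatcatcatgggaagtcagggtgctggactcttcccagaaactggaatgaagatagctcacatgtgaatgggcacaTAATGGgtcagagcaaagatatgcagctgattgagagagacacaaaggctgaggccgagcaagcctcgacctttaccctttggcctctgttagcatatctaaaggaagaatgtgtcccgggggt
Cdk6 intronic site, chr5:3386777-3386977: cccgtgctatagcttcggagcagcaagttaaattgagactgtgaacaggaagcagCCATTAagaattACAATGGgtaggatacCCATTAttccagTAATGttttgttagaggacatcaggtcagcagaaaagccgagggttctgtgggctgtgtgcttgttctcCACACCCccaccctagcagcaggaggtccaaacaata
Cdkn1a upstream site, chr17:29193748-29193948: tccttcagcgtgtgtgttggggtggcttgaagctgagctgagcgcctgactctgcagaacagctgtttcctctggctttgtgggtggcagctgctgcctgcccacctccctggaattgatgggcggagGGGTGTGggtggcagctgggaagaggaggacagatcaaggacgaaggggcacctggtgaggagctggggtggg

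NANOG summits lay near 9 of the 10 genes, and several of them were close to the start of the gene. Over all protein-coding genes, 48.4% had at least 1 optimal summit in the same kind of window, against 90% of the members (exact 95% interval 55.5 to 99.7, which covers counting error only). With 2 or more summits the members were 7 of 10 and all genes 22.8%, and with a summit at or above the median optimal signal they were 7 of 10 and 30.8%. With windows of 50 kb around the TSS alone, without gene bodies, 9 of 10 members and 44.8% of genes had a summit. Within 10 kb it was 6 of 10 members (Ccnd3, Ccne1, Cdc25a, Cdkn1b, Rb1 and Trp53) and 14.5% of genes. Within 2 kb, a distance chosen after the sites were seen, it was 4 of 10 (Ccnd3, Cdc25a, Rb1 and Trp53) and 4.12%. The members were chosen by name, with earlier results of these data known, and were not drawn from all genes. An interval around their share is therefore no test against all genes, and these shares are only set side by side.

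**Figure D1:**
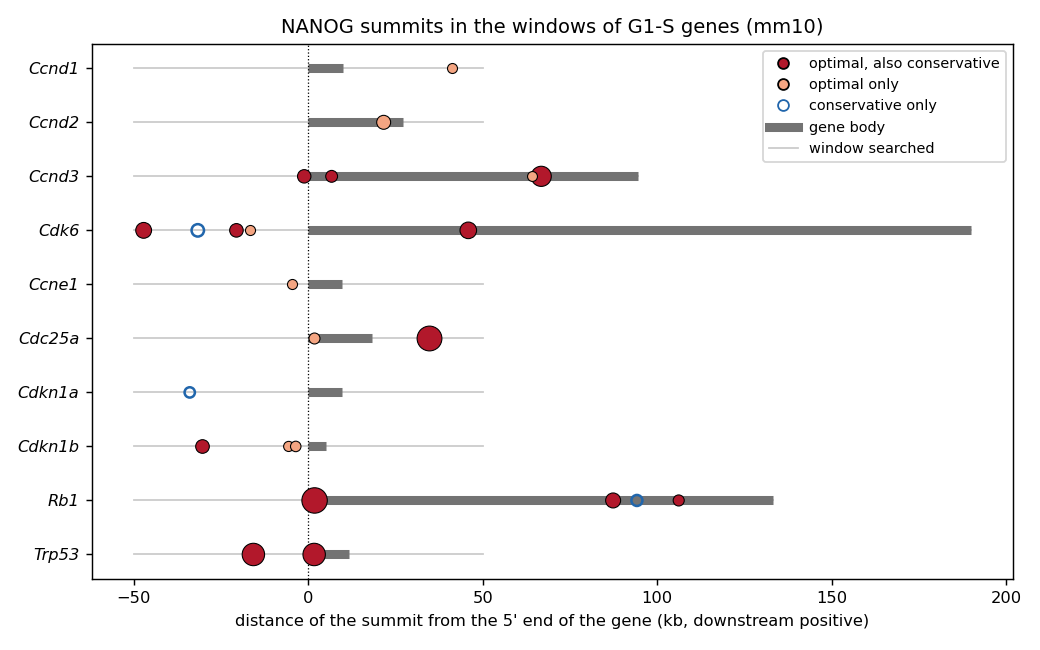
Optimal NANOG summits in the window of each gene. The x axis is the distance from the 5' end of the gene in kb, positive downstream, the area of a circle is proportional to the signal, dark circles are also conservative, light ones are not, and open circles are conservative sites with no optimal peak. Thick bars are gene bodies and thin lines the windows searched. The largest circles lie 1.79 kb downstream of the Rb1 start, 34.6 kb downstream of the Cdc25a start, and 1.66 kb downstream and 15.8 kb upstream of the Trp53 start. The 2 summits of Ccnd2 overlap in the plot.

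The 22 sites were of ordinary strength for the set. The signal is the peak caller's value per peak, on a scale that is not stated, and is used only to rank peaks within 1 list. Signals at the members ran from 11.3 to 152.6 with a median of 43.0, while the whole optimal set had a median of 40.2, and the median percentile of the sites was 53.9. Of the 22 sites, 12 were at or above the median of the set, 5 were above its 75th percentile and 2 above its 90th. Sites inside gene bodies numbered 11, and the other 11 lay outside, 9 upstream and 13 downstream of the TSS in all. For 12 of the 22 sites (54.5%) the member's own TSS was the nearest protein-coding TSS, against 51.4% of the 20050 pairs of any gene and an optimal summit in its window. For the other 10 sites it was that of another gene. With each gene taken at its 5' end, these 10 include 2 sites in Ccnd3 assigned to Bysl, although a second listed start of Ccnd3 is nearer to both.

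Among the D-type cyclins, Ccnd3 had the most sites, in a window of 144.6 kb against 100 kb for Ccnd1 and Ccnd2. Its sites 64.1 and 66.8 kb past the TSS were counted only because the window takes in the gene body. Ccnd3 (chromosome 17, 47505051 to 47599689, plus strand) had 4 optimal summits, of which 3 shared bases with the conservative set. The strongest (47571627 to 47571990) was within the gene body, 66.8 kb past the TSS, with a signal of 95.9 in the optimal set, 80.7 in replicate 1 (rank 2031) and 12.9 in replicate 2 (rank 5839). A second annotated start of Ccnd3 lies 88.4 kb downstream of the first, which puts this site 21.7 kb upstream of that start, nearer than the TSS of Bysl at 39.7 kb. The site 1.19 kb upstream of the first TSS (47503682 to 47504045) had a signal of 42.6 in the optimal set and 34.7 in replicate 1, and the nearest summit of replicate 2 was 122 bp away with a signal of 11.3 and rank 7609. It therefore missed the limit of 100 bp used here for support, although replicate 2 ranked a region beside it within its upper 15891. A site 6.67 kb downstream had a signal of 33.2, with 18.7 in replicate 1 and 13.6 in replicate 2. The weakest of the 4, 64.1 kb downstream, had 23.2 in the optimal set, 25.3 in replicate 1 and no replicate 2 summit closer than 2611 bp.

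At Ccnd1 and Ccnd2 no site had a replicate 2 summit within 100 bp, and none was conservative. The only Ccnd1 summit (chromosome 7, 144898580 to 144898943) was 41.1 kb downstream of its TSS, inside Fgf15, a growth factor gene whose TSS was 2.23 kb away. Its signal was 23.7 in the optimal set and 21.3 in replicate 1 (rank 12491), and the nearest replicate 2 summit, 447 bp away, had a signal of 8.74. The nearest summit beyond the Ccnd1 window was 81.7 kb downstream and had the TSS of Fgf4 as its nearest, with signal 21.6. Ccnd2 had a pair of summits 200 bp apart in overlapping regions inside the gene (chromosome 6, 127130419 to 127130982). The site 21.6 kb downstream of the TSS had a signal of 45.9, with 42.8 in replicate 1, and the one 21.4 kb downstream had 11.3, the lowest of all 22, with 14.96 in replicate 1. The nearest replicate 2 summit, 177 bp from the stronger site, had a signal of 7.83 and rank 31153. The TSS of Tigar, a p53-induced regulator of glucose metabolism, was slightly closer to both summits, at 21.05 and 21.2 kb. Replicate 2 had no summit of its upper 15891 in either window.

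Cdk6 was flanked by sites on both sides of its TSS. The gene spans 190.0 kb (chromosome 5, 3341004 to 3531008, plus strand), and the RefSeq promoter table places its start 2.89 kb inside this span. The strongest of its 4 optimal summits was in the gene body, 45.9 kb past the TSS (3386673 to 3387036), with a signal of 65.0 and with 50.5 in replicate 1 and 13.8 in replicate 2. Summits 47.2 and 20.6 kb upstream had signals of 59.0 and 43.5, with 44.7 and 36.4 in replicate 1 and 14.6 and 11.4 in replicate 2. These 3 were conservative sites and stood in the upper 15891 of both replicates. The summit 16.8 kb upstream had 23.98 in the optimal set, 17.0 in replicate 1 (rank 16221) and no replicate 2 summit closer than 1800 bp. A further conservative peak without an optimal one lay 31.7 kb upstream (3309118 to 3309481, signal 36.3), with 23.1 in replicate 1 and 9.56 in replicate 2. For all 4 optimal sites Cdk6 had the nearest TSS.

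Cdc25a had 1 of the strongest sites, and Ccne1 a weak one. For Cdc25a (chromosome 9, 109875518 to 109893895, plus strand), the site 34.6 kb downstream of the TSS (109909976 to 109910224) had a signal of 145.2, rank 1138 of the optimal set. It had 122.0 in replicate 1 (rank 923) and 24.3 in replicate 2 (rank 2268), and was conservative. The site lay between genes, 19.7 kb upstream of the TSS of Map4, which encodes a microtubule-associated protein and was nearer than Cdc25a. The second site, 1.48 kb downstream of the TSS and inside the gene, had 28.5 in the optimal set, 19.2 in replicate 1 and 7.76 in replicate 2 (rank 32715), and was not conservative. Ccne1 (chromosome 7, 38097984 to 38107490, minus strand) had 1 summit 4.64 kb upstream, with 23.9 in the optimal set, 22.5 in replicate 1 and 6.65 in replicate 2 (rank 67294). Replicate 2 held another region in its upper 15891, 29.3 kb upstream of Ccne1 with signal 11.6, with no replicate 1 summit within 100 bp.

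The inhibitor genes parted in the optimal set. Cdkn1b (chromosome 6, 134920401 to 134925525, plus strand) had 3 upstream summits. The conservative one, 30.6 kb upstream (134889655 to 134890018), had 43.9 in the optimal set, 28.8 in replicate 1 and 16.1 in replicate 2, and lay inside Gpr19, an orphan receptor gene whose TSS was 8.36 kb away. The summits 5.64 and 3.62 kb upstream had 24.2 and 25.99, with 18.8 and 22.2 in replicate 1. Replicate 2 had 5.57 at the first of these, at rank 136549 of 300000, and its nearest summit to the second was 2021 bp away. Cdkn1a (chromosome 17, 29090979 to 29100722, plus strand) was the member without an optimal summit. It had 1 conservative peak 34.0 kb upstream (29056788 to 29057151), with a signal of 25.2 and with 15.9 in replicate 1 (rank 17519) and 14.2 in replicate 2 (rank 4973). In the relaxed list of the pooled replicates this region stood at rank 13781, while the weaker Ccnd2 summit, which is in the optimal set, stood at rank 71131. Of the 22 optimal sites, 21 stood within the upper 15891 of the pooled list, with the Ccnd2 summit as the exception. Replicate 1 alone added a region 18.0 kb upstream of Cdkn1a with signal 17.9.

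Rb1 and Trp53 had the sites with the highest signals close to a TSS. Rb1 (chromosome 14, 73192858 to 73325951, minus strand) had its strongest summit 1.79 kb downstream of the TSS (73324042 to 73324259), with a signal of 152.6, the highest among the members and rank 1036 of the optimal set. Replicate 1 gave 108.8 (rank 1167) and replicate 2 gave 41.0 (rank 925), so both replicates placed it among their upper 1167 regions. A second site 87.4 kb downstream had 52.99, with 34.1 in replicate 1 and 20.1 in replicate 2, and lay 0.689 kb downstream of the TSS of Lpar6, a lysophosphatidic acid receptor gene nested in Rb1. The third, 106 kb downstream, had 28.9, with 16.9 in replicate 1 (rank 16333) and 9.13 in replicate 2 (rank 15510). All 3 were conservative, and another conservative peak with no optimal one lay 94.2 kb downstream with signal 28.6.

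Trp53 (chromosome 11, 69580348 to 69591873, plus strand) had 2 sites of nearly equal signal. The site 1.66 kb downstream of the TSS (69581909 to 69582144) had 118.6 in the optimal set, 80.1 in replicate 1 (rank 2054) and 40.8 in replicate 2 (rank 933). The site 15.8 kb upstream (69564460 to 69564703) had 118.4, with 93.5 in replicate 1 (rank 1582) and 26.7 in replicate 2 (rank 1925). The replicates thus ordered the pair differently: the upstream site was the higher in replicate 1, and the downstream site in replicate 2. The upstream site lay inside Wrap53, the gene that neighbours Trp53 on the opposite strand, and was nearest to the TSS of Efnb3, an ephrin gene, at 3.44 kb. Both were conservative. Replicate 2 also had a region 19.4 kb downstream with signal 10.1.

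**Figure D2:**
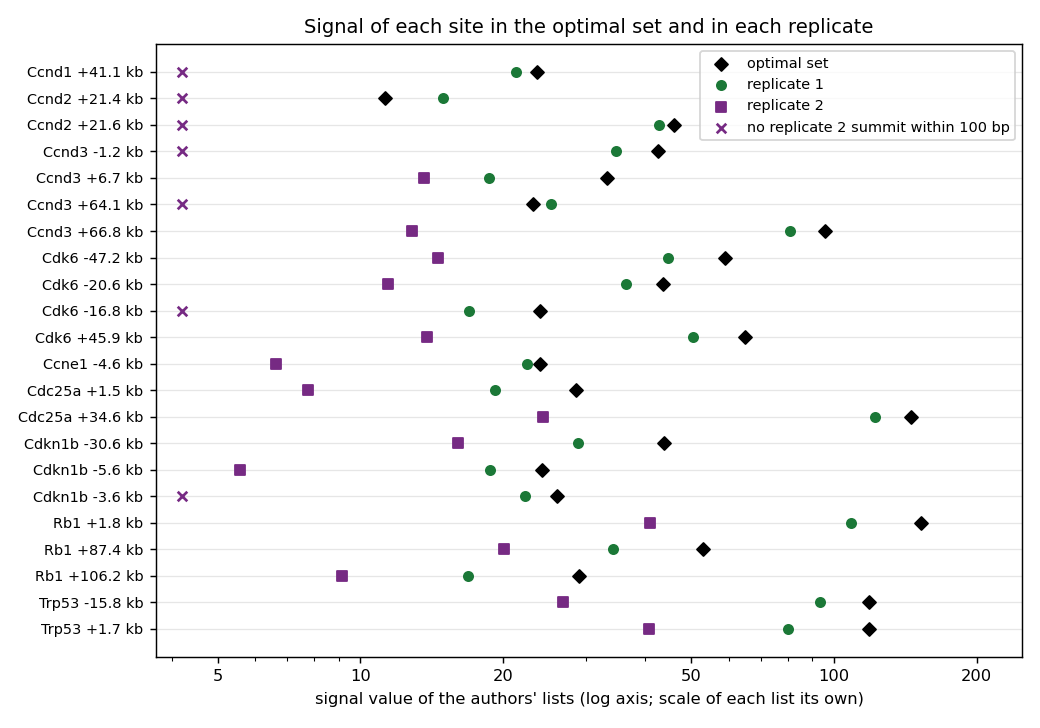
Signal of each of the 22 sites in the optimal set (diamonds), in replicate 1 (circles) and in replicate 2 (squares), on a log axis. Each list has a scale of its own, so values are to be compared between sites for 1 kind of symbol and not between symbols. Crosses mark the 7 sites with no replicate 2 summit within 100 bp, and the Rb1 site at 1.79 kb, the Trp53 site at 1.66 kb and the upstream Trp53 site are the 3 highest in replicate 2.

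Support differed between the replicates much as it did over the whole optimal set. All 22 sites had a replicate 1 summit within 100 bp in its relaxed list of 300000 regions, where 96.9% of all optimal summits did. In replicate 2 it was 15 of 22, against 75% of all optimal summits. Both replicates supported 15 of 22 sites, or 68.2% (45.1 to 86.1), against 73.1% of the set. That interval takes the sites as independent, although many share a gene and the 2 Ccnd2 regions overlap. With only the upper 15891 regions of each replicate, 11 of 22 sites were supported by both, against 46.2%. The conservative set covered 13 of 22 sites, against 56.7%. These shares were near those of all optimal peaks. The 13 conservative sites had a median signal of 59.0 and the other 9 of 23.98. The 7 sites without replicate 2 support were at Ccnd1, Ccnd2 (both), Ccnd3 (2 of 4), Cdk6 (1 of 4) and Cdkn1b (1 of 3), and none was at Rb1, Trp53, Cdc25a or Ccne1.

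Counted by gene, the share of members with a summit was above that of all genes in each list. The conservative set had a summit in the window of 7 of 10 members and of 33.7% of all genes. It gained Cdkn1a and lost Ccnd1, Ccnd2 and Ccne1 relative to the optimal set. The upper 15891 regions of replicate 1 touched 10 of 10 members (48.5% of genes), and those of replicate 2 touched 8 of 10 (54% of genes). Within 2 kb of the TSS, replicate 1 had a summit at 4 of 10 members (4.09% of genes), the same 4 as the optimal set. Replicate 2 had one at 3 of 10 (4.05% of genes), namely Ccnd3, Rb1 and Trp53. The exact 95% interval of 4 of 10 is 12.2 to 73.8%, and that of 3 of 10 is 6.67 to 65.2%, for counting error only. The 2 kb distance was chosen after the sites were seen, and the optimal set was made from these same replicates. These shares and intervals are therefore no independent check of the optimal set and no test.

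**Figure D3:**
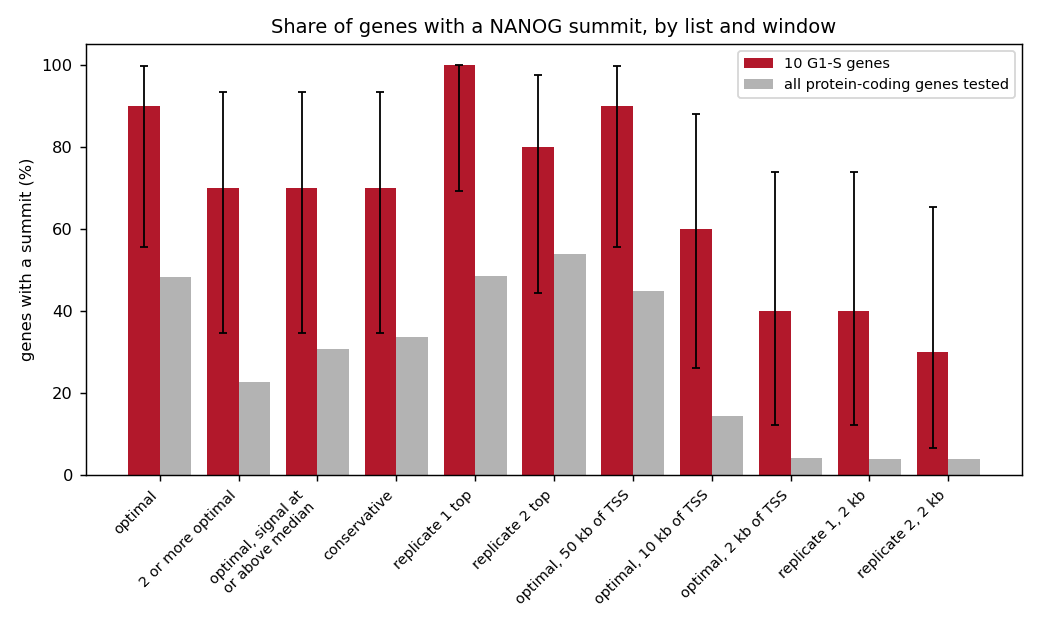
Share of the 10 members (red, with exact 95% binomial intervals that cover counting error only) and of all 21489 protein-coding genes tested (grey) with a summit, for each list and window named on the x axis. The y axis is in percent and starts at 0. The bars of the members are the higher in every pair. In the 2 kb windows of the optimal set, a distance chosen after the sites were seen, they stand at 40% against 4.12%.

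Just inside the 50 kb limit lay the Cdk6 summit 47.2 kb upstream, and just outside it were summits 55.7 kb upstream of Rb1 (signal 18.5) and 55.8 kb downstream of Cdkn1b (signal 58.8). Ccne1 had one 60.1 kb downstream (21.8), and Cdkn1a had one 66.0 kb upstream (23.4), nearest to Srsf3. Trp53, Cdc25a and Cdk6 had no further summit nearer than 109.8, 159.8 and 236 kb.

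The mm9 lists, made separately on the older build, gave a similar distribution. Their values per peak are the authors' enrichments, with no reference stated. Series-level peaks had their midpoint in the mm9 windows of 9 of 10 members, against 45.2% of mm9 genes, with Ccne1 as the member without one and Cdkn1a with one. Of 20 such peaks, 20 overlapped a peak of replicate 1, against 99.6% of all series-level peaks, and 9 (45%) a peak of replicate 2, against 46.9%. These shares were near those of all peaks, and the replicate lists differ in length, with 22082 and 6618 peaks. The highest enrichment was 19.6 at Cdc25a, 34.3 kb downstream of its TSS (mm9 chromosome 9, 109811399 to 109813272), with 39.9 in replicate 1 and 9.28 in replicate 2. The Rb1 peak 1.66 kb downstream of the TSS had 18.5, with 36.1 and 14.8 in the replicates, and was intronic. The Trp53 peaks had 18.3 at 15.8 kb upstream and 14.6 at 1.55 kb downstream, the latter intronic, with 11.5 and 16.2 in replicate 2. The same order within each replicate, upstream first in replicate 1 (36.1 and 29.0) and downstream first in replicate 2, was thus seen with the mm9 lists of the same libraries. Intronic peaks were also found in Ccnd2, Ccnd3 (2), Cdk6 (2) and Cdc25a, and no midpoint lay in a protein-coding exon of its member. The midpoint of a second Rb1 peak, 87.2 kb downstream of the TSS, lay within Lpar6. Annotated exons of Lpar6 and of Rb1 came within 100 bp of that midpoint.

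The printed sequences were part of a search for 9 motifs on both strands. They were the homeobox core TAATG and its longer form TAATGG, the OCT octamer ATGCAAAT, the SOX sites CATTGTT and ACAATGG, the ESRRB site AAGGTCA, the KLF site GGGTGTG and the E2F sites TTTGGCGC and TTTCGCGC. TAATGG contains TAATG, and the SOX sites overlap each other. Within 50 bp of the midpoint, 8 of 20 member peaks (40%) held at least 1 of them, against 38.7% of all 13341 series-level peaks. In the 201 bp windows it was 11 of 20 (55%) against 59.4%. The homeobox core was in 4 of 20 central windows (20%), and in 21.1% of all peaks. Single motifs differed more from all peaks, on few member peaks each. In the 201 bp windows the homeobox core was in 5 of 20 (25%) against 35.8%, the ESRRB site in 1 of 20 (5%) against 12.9%, and the KLF site in 3 of 20 (15%) against 7.18%. The SOX site ACAATGG was in 3 of 20 central windows (15%) against 6.83%, and in 3 of 20 of the wider ones against 11.2%. None of these differences was tested.

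The printed windows differed in which letters they held. The Cdk6 intronic window printed above had 3 homeobox cores, 2 of them in the longer form, with 1 SOX site between them and 1 KLF site farther out. Neither this Cdk6 peak nor the printed Cdkn1a peak overlapped a peak of the mm9 list of replicate 2. The Ccnd3 window had 1 core, the Cdc25a window 1 ESRRB site, and the Cdkn1a window 1 KLF site. The Trp53 intronic window had 1 octamer, toward the right end of the line (4.17% of all 201 bp windows held one), and the upstream Trp53 window had 1 SOX site. The Rb1 window, around the midpoint of the region with the highest mm10 signal among the members, had none of the 9. These matches are letters in a window, and whether NANOG or another factor contacts them was not tested. E2F sites were in none of the 20 member windows and in 8 and 2 of all 201 bp windows.

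Of the wider G1-S pathway, 55 other genes from a list of cyclins and kinases, inhibitors, RB, E2F and DP factors, CDC25 and WEE1 genes, checkpoint genes, SCF subunits and replication licensing factors were read in the same way. An optimal summit was in the window of 33 of them (60%), against the 48.4% of all genes, and a conservative one in that of 24 (43.6%), against 33.7%. Within 10 kb of the TSS it was 10 of 55 (18.2%) and within 2 kb 4 of 55 (7.27%). These shares are nearer to those of all genes than the shares of the 10 members are, and the difference was not tested.

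By role, RB family, E2F and DP genes had 9 of 12 with an optimal summit, SCF genes 5 of 6 and CDC25 and WEE1 genes 3 of 4. Cyclins and kinases had 5 of 8, licensing genes 6 of 11 (54.5%) and checkpoint genes 5 of 9 (55.6%). Over all genes the share was 48.4%, and 33.7% with the conservative set. Each role holds few genes, and differences between roles were not tested. The other CDK inhibitor genes, Cdkn1c, Cdkn2a, Cdkn2b, Cdkn2c and Cdkn2d, had 0 of 5 with either set. Replicate 1 had none of its upper 15891 regions in their windows, while replicate 2 had 1 in that of Cdkn2c, with a highest signal of 9.29, and 2 in that of Cdkn2d, with a highest signal of 9.81. Of all genes, 48.5% had such a region of replicate 1 in their window and 54% one of replicate 2. Together with Cdkn1a this left Cdkn1b as the CDK inhibitor gene with an optimal summit. In the conservative set Cdkn1a and Cdkn1b had 1 peak each, that of Cdkn1b inside Gpr19. The inhibitor genes were singled out after their values were seen. Cdkn2a and Cdkn2b are neighbours and share much of their windows.

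The 8 pathway genes with the highest signals had values above that of Rb1, with the exception of Mcm6, and mostly at sites nearer to another gene's TSS. E2f2, an activating E2F factor, had 384.8 at 25.3 kb upstream, where the TSS of Id3 was nearer. Skp2, the SCF subunit that targets p27 for degradation, had 251.1 at 20.3 kb downstream inside the gene, with 179.3 in replicate 1 and 70.6 in replicate 2. E2f5 had 231.9 at 42.9 kb downstream and E2f8, an atypical E2F repressor, 186.4 at 36.1 kb upstream. Chek2, a checkpoint kinase, had 157.8 (inside Ulk1), Tfdp2, a dimer partner of E2F factors, 156.1 (inside the gene), Ccng1, a p53 target, 155.4 (inside Nudcd2), and Mcm6, a helicase subunit, 140.4 (inside Dars). All 8 of these sites were conservative. Of these 8 genes, E2f8 and Tfdp2 had the nearest TSS to their site.

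**Figure D4:**
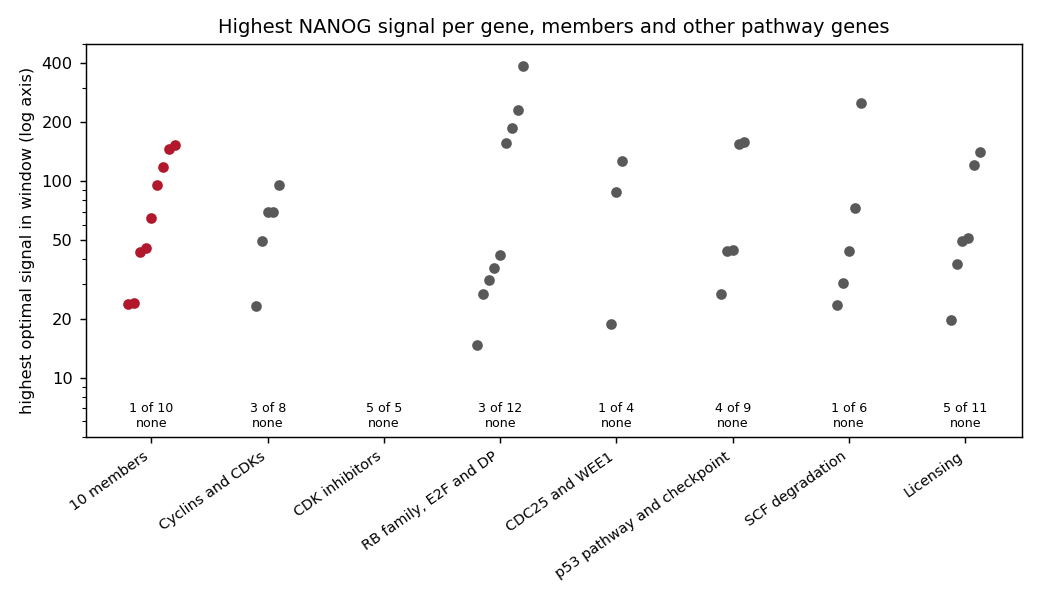
Highest optimal signal in the window of each gene, on a log axis, for the 10 members (red) and the 55 other pathway genes by role (grey). The text at the foot of each column counts the genes without an optimal summit: 1 of 10 members and 5 of 5 other CDK inhibitor genes. The member with the highest point is Rb1 at 152.6, and the highest point of all is E2f2 at 384.8.

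Genes whose highest values most resembled those of Rb1 were sought over all protein-coding genes, by the smallest of the largest absolute log2 ratios over the optimal set and the relaxed lists of the 2 replicates. Rb1 had 152.6, 108.8 and 41.0. Enah, an actin regulator, had 151.3, 112.4 and 42.2, with a largest log2 ratio of 0.05. Tet1, an enzyme that oxidises methylcytosine, and Slc25a16, a mitochondrial carrier gene, had the same 147.3, 106.5 and 40.8, since their windows share that site. This likeness rests on 2 samples and on 1 value per gene and list.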

How the data were processed

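NANOG ChIP-seq of 2 biological replicates of E14TG2a.4 was analysed from the authors' peak lists. Per the file headers and labels, the mm10 lists are relaxed regions of replicate 1, replicate 2 and their pool, as input to the irreproducible discovery rate (IDR) procedure, and the optimal and conservative sets derived from them. By the order of narrowPeak fields, the deposited mm10 values are a score, a signal and a -log10 q-value. The deposited mm9 broadPeak lists give an enrichment of unstated reference, a -log10 p-value and a q-value read as untransformed. The peak caller with its version, the IDR threshold and the read depth are not given in the sources used here. No score entered a result.

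Summits are the start plus the offset, printed as 1-based. Gene positions came from a RefSeq table of GRCm38.p6, with strand from its promoter table for 17492 genes and by symbol from the GENCODE mm9 annotation for 3997, in all 98.2% of 21887 protein-coding genes on assembled chromosomes. Of the members, 7 had a promoter entry and 3 took the strand from mm9. Peak overlap needed 1 bp, and support a summit within 100 bp. Replicate top lists are the upper 15891 regions by signal. Coordinates of mm9 and mm10 were never converted. Sequence and exons were read on mm9 only, since mm10 sequence beyond promoters was not used here. Intervals are exact Clopper-Pearson at 95%. No test was run, as there is 1 group and the members were chosen by name.

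The members, the pathway list and the motifs were chosen with earlier results of these data known. The named genes are all members, the 8 pathway genes with the highest signal, the nearest genes of the sites described, the 3 genes most like Rb1 and, chosen after their values were seen, the CDK inhibitor genes without a summit and genes that hold a site. Alternatives covered windows, peak sets, single replicates, overlap limits, ranking and motif windows. Counting functions were tested on simulated data. The tools were pandas 2.3.3 and NumPy 2.4.6 under Python 3.11.15, SciPy 1.17.1 for intervals, and matplotlib 3.10.9 for plots.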

Additional observations from a re-analysis of the deposited data

How the results depend on the processing

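The number of members with an optimal summit stayed within 1.5 times of 9 in all alternatives except the 2 kb window (4, chosen after seeing the data). It ran from 6 within 10 kb to 10 with 100 kb, and from 8 without replicate 1 to 10 without replicate 2. The share of all genes was 14.5% within 10 kb, 54% without replicate 1 and 48.5% without replicate 2. Counted for the nearest TSS only, the number of members was 7, as Ccnd1 and Ccnd2 dropped out. For 100 kb and for the nearest TSS the share of all genes was not counted, so those counts have no baseline. The number of sites, 22, depended more on the window and the threshold: it was 8 within 10 kb, 4 within 2 kb, 41 with 100 kb, 12 by nearest TSS and 12 at or above the median signal, and 20 to 23 when 1 replicate was left out. The other pathway genes, 33 with a summit, numbered 10 within 10 kb, 4 within 2 kb and 16 by nearest TSS, and 33 to 35 with 1 replicate left out. Within 2 kb the share of all genes was 4.12%, and by nearest TSS it was not counted. Conservative membership was 13 under each overlap rule. Support by both replicates, 15, ranged from 11 to 17 over the limits tried, and was 15 to 22 when 1 replicate alone had to support a site. The median percentile of 53.9 was 50.6 when peaks were ranked by the q-value. Motifs were in 8 of 20 member peaks near the midpoint, against 38.7% of all peaks. With whole regions, which are longer, they were in 17 of 20. The share of all peaks was not counted for whole regions, so the 17 has no baseline. Without counts per peak, the depth behind a weak site is unknown, and an absent summit was not detected by these lists rather than shown to be missing. No paired analysis was possible because there is only 1 group.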
